A study of Mus musculus with 5 samples.

Results

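The 8 genes described here encode amino acid transporters that the transcription factor ATF4 is known to act on: Slc1a4, Slc1a5, Slc6a9, Slc7a1, Slc7a5, Slc3a2, Slc38a1 and Slc38a2. They are 8 of 53700 genes in the deposited count table. Each had 1 entry, and all 8 passed the minimum of 10 CPM (the usual count relative to library size) in at least 1 library that 8846 genes passed. The members were chosen by symbol, as genes known to respond to ATF4, with their measured values in these libraries in view, so their differences from vehicle are a description and carry no test.

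RNA-seq of poly-A RNA was made from MutuDC, an established mouse line of dendritic cells with no further genotype in the labels, for all 5 libraries. They are a vehicle control, placed at 0 h by its label, and cells after 2, 6, 12 and 24 h with Fanchinoline (spelling of the labels). The design text calls the control cells untreated, and neither the dose nor the solvent is given in the sources used here. That text also speaks of triplicates, while the table holds 1 column per time point, and whether columns pool replicates is not stated. There is thus no measure of spread between cultures, and time in culture and time with the compound cannot be told apart. In bulk RNA, fewer cells with a transcript and less of it per cell cannot be told apart either.

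ATF4 is the effector of the integrated stress response. When amino acids run short or the endoplasmic reticulum is stressed, kinases phosphorylate the initiation factor eIF2, general translation slows, and translation of the Atf4 message increases. ATF4 then binds C/EBP-ATF response elements, together with partners of the C/EBP family, in genes for amino acid uptake, amino acid synthesis and tRNA charging. Transporters of this programme import neutral, cationic and small amino acids, and several work as exchangers that trade one amino acid for another.

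Libraries held between 33568526 and 42854511 counts. The share of mitochondrially encoded transcripts was 2.58% in vehicle, above the 1.47% to 1.78% of the treated libraries. Vehicle also differed from the treated libraries in the balance of transcript lengths: between the longest and the shortest 20% of compared genes the median log2 ratio to vehicle differed by 0.57 after 2 h and 0.75 after 24 h (longest higher), against 0.04 to 0.06 between consecutive treated libraries. Ratios to vehicle are therefore also given after a correction for length and GC content of the transcript, called length-adjusted. Of the 10 markers of type 1 conventional dendritic cells, all were detected in each library, among them Xcr1 (276 to 327 CPM) and Clec9a (203 to 251 CPM). Their summed level was 15566 CPM in vehicle and 10399.8 CPM at 24 h, a sum held mostly by Cd74 (9698 and 5537 CPM) and Irf8 (4259 and 3283 CPM). At 24 h 7 of the 10 were below vehicle and 3 above it. Those below included Cd8a (32.5 and 13.7 CPM), the lowest relative to vehicle, and Batf3 (71.7 and 43.4 CPM). Those above included Cadm1 (139.6 and 177 CPM). The 4 T cell and 3 neutrophil markers were at 0 in every library, and the B cell, plasmacytoid dendritic cell and fibroblast lists summed to at most 0.519 CPM. The 6 macrophage markers summed to 115 to 172 CPM and the 4 epithelial ones to 7.39 to 10.5 CPM. The part of these shifts in the transporter values was not tested.

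As a group, the transporters stood high at 2 h and low at 24 h. Their summed counts made up 0.0945% of the vehicle library, and 0.172%, 0.129%, 0.0824% and 0.0783% of the libraries after 2, 6, 12 and 24 h. Of the 8 genes, 7 had their highest level at 2 h. Slc38a1 was the exception in order only: its 63.8 CPM at 6 h and 63.4 CPM at 2 h did not differ beyond counting error. The lowest level was at 24 h for 5 genes (Slc1a4, Slc1a5, Slc6a9, Slc7a5 and Slc3a2) and in vehicle for 3 (Slc7a1, Slc38a1 and Slc38a2). The plot of levels by hour shows these shapes.

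**Figure D1:**
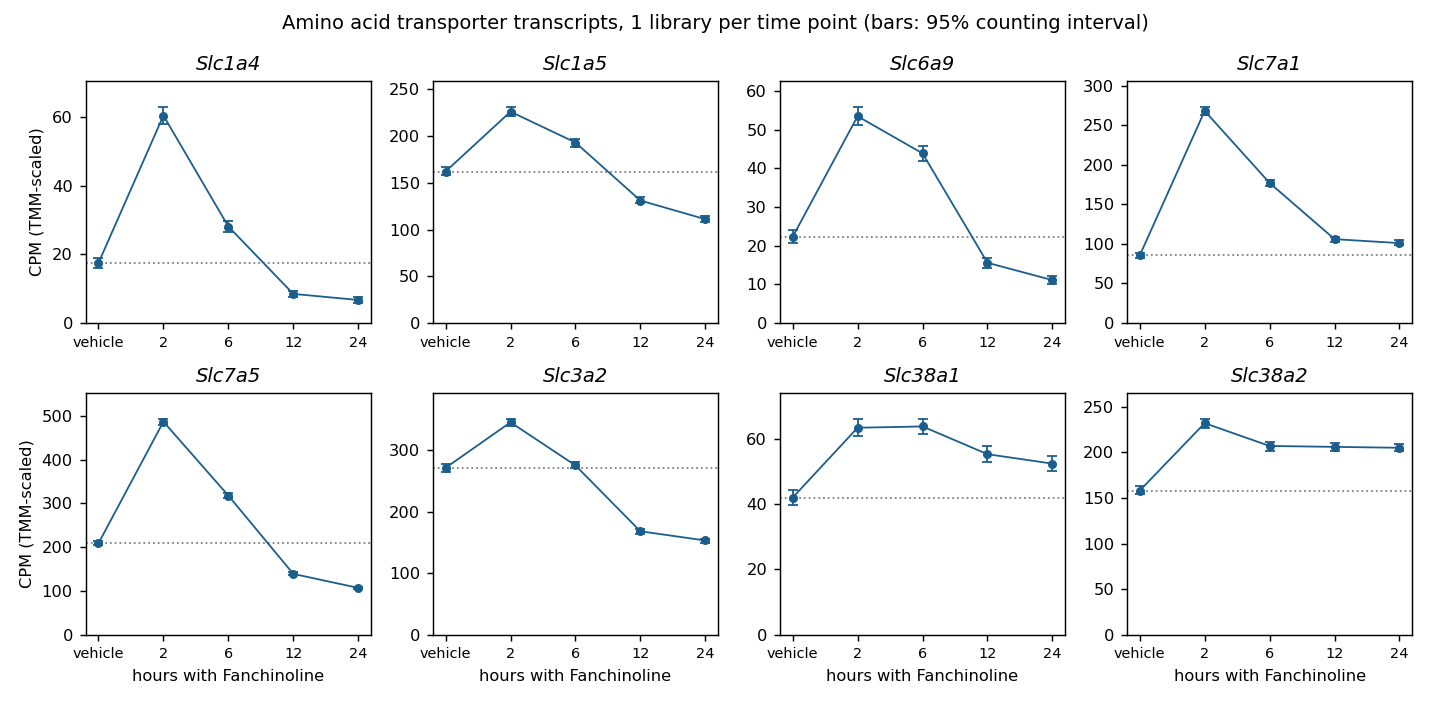
TMM-scaled CPM (vertical axis, from 0) of each transporter in the vehicle library and after 2, 6, 12 and 24 h with Fanchinoline, 1 library per point; bars are 95% counting intervals and the dotted line is the vehicle level. Slc1a4, Slc1a5, Slc6a9, Slc7a5 and Slc3a2 end below their dotted line, and Slc7a1, Slc38a1 and Slc38a2 end above it.

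Ratios below are log2 ratios of scaled counts, each with an exact 95% interval. The intervals span counting error alone, and reads copied by PCR are not independent molecules. A call, higher or lower, needed a log2 ratio of 1 or more in either direction and an interval clear of 0. At 2 h 4 of 8 transporters were called higher and 0 lower, where 0.904% of all compared genes were called higher and 0.43% lower. Their median was 0.91, beside 0.03 over all compared genes. The length-adjusted median was 0.74, and the count of 4 higher was the same. These contrasts had a part in choosing the genes, so nothing is read from the shares.

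Slc1a4 (ENSMUSG00000020142) encodes ASCT1, an exchanger of alanine, serine, cysteine and threonine, on chromosome 11 (20302180 to 20332713, minus strand, GRCm38). It was at 17.5 CPM in vehicle and 60.4, 28.1, 8.48 and 6.72 CPM after 2, 6, 12 and 24 h. The 2 h library was the highest and the 12 and 24 h libraries lay below vehicle, with counting intervals that do not touch it. Its log2 ratio to vehicle was 1.78 (1.65 to 1.92) after 2 h and 0.68 after 6 h, then -1.04 after 12 h and -1.38 (-1.59 to -1.18) after 24 h, called at 2, 12 and 24 h. Length-adjusted, it was 1.60, 0.52, -1.18 and -1.49. Its highest level was 8.98 times its lowest, the widest range of the 8 genes.

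Slc1a4 was also the transporter with a letter match to the ATF4 element at its promoter. The core searched was TGATGNAA, on both strands, in RefSeq's windows (build GRCm38.p6) from 250 bases before to 50 after a gene's start. Windows were found for 5 of the 8 genes (Slc1a4, Slc6a9, Slc7a1, Slc3a2 and Slc38a2), and for Slc1a4 alone a window held the core, while 3.97% of all 32817 windows and 4.51% of all genes with a window did. The Slc1a4 match reads TGATGCAA on the strand opposite to the gene and starts 4 bases before the start site. The window of Slc3a2, all 3 windows of Slc6a9 and 1 of the 2 windows of Slc7a1 lie wholly inside the spans that GENCODE gives these genes. The E-box CACGTG, searched in the same way, was in 0 of these 5 genes' windows and in 7.15% of all windows. A match is only a match of letters, and its absence says only that these letters are not in the window. Introns and other sequence outside these windows, where ATF4 elements are also known to lie, as in Slc38a2, were not searched.

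Shown are the upstream windows of the genes with the highest 2 h ratios, Slc1a4 and Slc7a1, and of Slc38a2, whose steps after 6 h were -0.01, each 5′ to 3′ on the gene's own strand. Capitals mark the match, which in this orientation is the reverse complement of the core. Slc1a4 is at chr11:20332710-20332963, Slc7a1 at chr5:148399905-148400154 and Slc38a2 at chr15:96699729-96699978, all on the minus strand.
Slc1a4: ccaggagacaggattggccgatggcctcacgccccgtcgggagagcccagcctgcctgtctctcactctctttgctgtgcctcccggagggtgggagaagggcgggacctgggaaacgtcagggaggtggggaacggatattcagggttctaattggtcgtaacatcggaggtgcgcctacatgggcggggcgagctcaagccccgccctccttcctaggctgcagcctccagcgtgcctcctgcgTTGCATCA
Slc7a1: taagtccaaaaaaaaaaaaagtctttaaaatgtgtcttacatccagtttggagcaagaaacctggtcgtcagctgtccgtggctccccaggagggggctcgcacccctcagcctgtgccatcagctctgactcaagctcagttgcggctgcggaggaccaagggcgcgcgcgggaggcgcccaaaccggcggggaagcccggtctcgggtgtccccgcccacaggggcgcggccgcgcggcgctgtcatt
Slc38a2: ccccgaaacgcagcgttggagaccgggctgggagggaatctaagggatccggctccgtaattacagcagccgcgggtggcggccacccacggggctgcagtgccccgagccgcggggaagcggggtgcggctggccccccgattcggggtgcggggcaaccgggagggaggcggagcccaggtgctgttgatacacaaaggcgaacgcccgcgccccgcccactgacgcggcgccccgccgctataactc
The windows of 300 bases were rich in G and C, with 65.0% in Slc1a4, 65.0% in this start of Slc7a1 and 73.0% in Slc38a2.

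Slc1a5 (ENSMUSG00000001918, chr7:16781340-16798274, plus strand), the paralogue of Slc1a4, encodes ASCT2, an exchanger that carries glutamine. It was at 162 CPM in vehicle and 226, 193, 131 and 111 CPM after 2, 6, 12 and 24 h. The order of its libraries was the same as for Slc1a4, over a narrower range (highest over lowest 2.04). Its ratio to vehicle was 0.48 (0.43 to 0.53) at 2 h and -0.54 (-0.60 to -0.49) at 24 h and was called at no time. Per kilobase of transcript, Slc1a5 was at 12.9 times the level of Slc1a4 in vehicle (11.9 to 14.1), at 5.24 times at 2 h and at 23.1 times at 24 h (20.5 to 26.1).

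Slc6a9 (ENSMUSG00000028542, chr4:117834506-117875198, plus strand) encodes GlyT1, a sodium- and chloride-dependent glycine transporter. Its levels were 22.3 CPM in vehicle and 53.5, 43.9, 15.6 and 11.1 CPM after 2, 6, 12 and 24 h. At 6 h it was nearer its 2 h level than Slc1a4 was, with a ratio of 0.97 (0.85 to 1.10) to vehicle against 0.68 for Slc1a4. It was called higher at 2 h (1.26, 1.14 to 1.39) and lower at 24 h (-1.01, -1.18 to -0.84). The latter sat at the threshold: it was -0.99 with DESeq2's size factors and -0.91 with library totals, neither called. Exons of Ccdc24 overlap those of Slc6a9 on the opposite strand over 1429 bases, and no source used here says whether the counting used strand. Ccdc24 was at 0.106 to 1.43 CPM.

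Slc7a1 (ENSMUSG00000041313, chr5:148327410-148399904, minus strand) encodes CAT1, the main importer of arginine and lysine in many cells. It was at 85.4 CPM in vehicle and 268, 177, 106 and 101 CPM after 2, 6, 12 and 24 h. Its 2 h ratio of 1.65 (1.59 to 1.71) was the second highest of the 8 genes. Length-adjusted, this ratio was 1.19, beside 1.10 for Slc6a9 and 1.06 for Slc7a5. At 6 h it was called higher at 1.05 (0.99 to 1.11), the only transporter called at that time. This call was lost with upper quartile scaling (0.98) and with length adjustment (0.57). At 12 and 24 h it stood at 0.31 and 0.25, but at -0.18 and -0.24 when length-adjusted, so whether it ended above or below vehicle depends on this adjustment. Its transcript, at 7179 bases, is among the longest 20% of compared genes, as are those of Slc38a1 and Slc38a2.

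Slc7a5 (ENSMUSG00000040010, chr8:121881150-121907694) and Slc3a2 (ENSMUSG00000010095, chr19:8706882-8723369), both on the minus strand, encode the 2 chains of 1 exchanger. The light chain LAT1 (Slc7a5) carries leucine and other large neutral amino acids, and the heavy chain CD98 (Slc3a2) brings it to the plasma membrane and pairs with other light chains too. Slc7a5 was at 209 CPM in vehicle and 487, 318, 139 and 107 CPM after 2, 6, 12 and 24 h. Slc3a2 was at 271, 345, 275, 168 and 153 CPM in the same order. Both peaked at 2 h and ended below vehicle, and the light chain spanned the wider range, 4.55 against 2.26 for highest over lowest.

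At 2 h Slc7a5 was called higher (1.22, 1.18 to 1.26), while Slc3a2 stood at 0.35 (0.31 to 0.39). At 6 h Slc3a2 was back at its vehicle level (0.02, -0.02 to 0.06) and Slc7a5 still above it (0.60). At 24 h both were lower without a call, at -0.97 and -0.83. Slc7a5 was called there with upper quartile scaling (-1.02). Per kilobase, the light chain was at 0.617 times the heavy chain in vehicle and 1.13, 0.924, 0.664 and 0.560 times after 2, 6, 12 and 24 h. The counting interval at 2 h, 1.10 to 1.15, touches none of the others. These ratios use the longest annotated transcript. With the length of all annotated exons, Slc7a5 was above Slc3a2 at 6 h too (85.7 against 77.9 CPM per kilobase).

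Slc38a1 and Slc38a2 encode SNAT1 and SNAT2, sodium-coupled importers of glutamine and other small neutral amino acids, from neighbouring places on chromosome 15 (96571418 to 96642913 and 96687392 to 96699730). Slc38a1 was at 42.0 CPM in vehicle and 63.4, 63.8, 55.3 and 52.4 CPM after 2, 6, 12 and 24 h. Slc38a2 was at 158, 232, 207, 206 and 205 CPM. All 4 treated libraries lay above vehicle for both genes, and the intervals of Slc38a2 included 0 for both steps after 6 h (-0.01 each). Neither was called at any time: their ratios were 0.59 and 0.55 at 2 h and 0.32 and 0.37 at 24 h. Length-adjusted, they were 0.20 and 0.36 at 2 h and -0.15 and 0.03 at 24 h, so their late excess over vehicle is not seen with this adjustment, and for Slc38a1 the sign flips. The ratio of Slc38a2 to Slc38a1 per kilobase stayed between 3.85 and 4.65 over the 5 libraries.

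**Figure D2:**
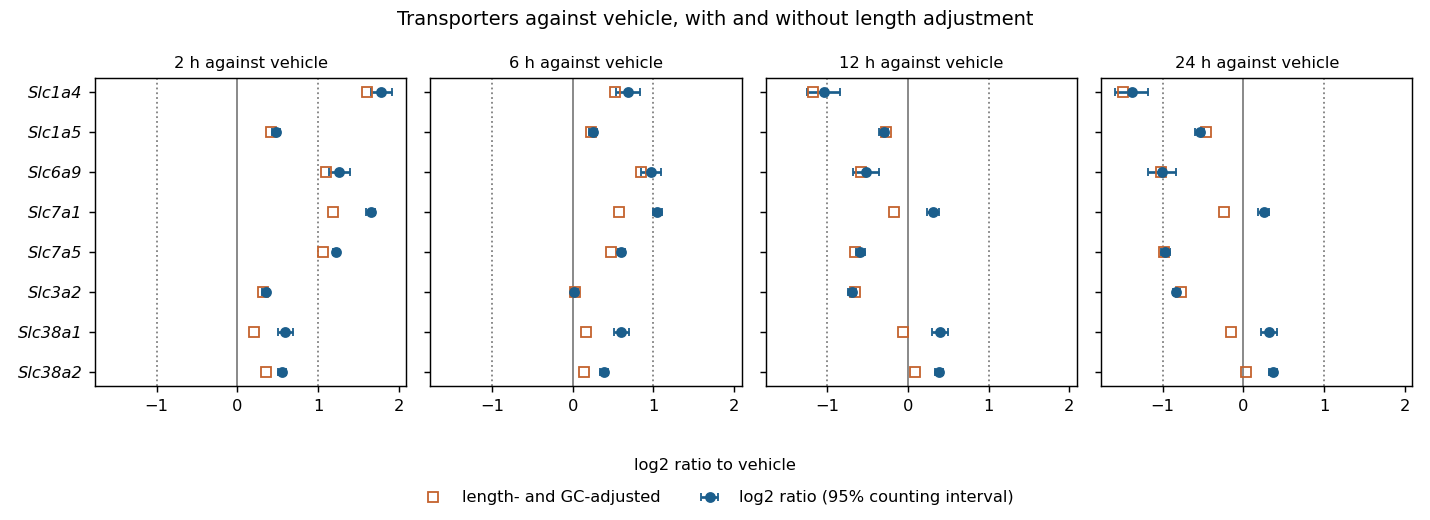
Log2 ratio to vehicle (horizontal axis) of each transporter at 2, 6, 12 and 24 h; filled points are ratios with 95% counting intervals, open squares are the length-adjusted values, and dotted lines mark the size of 1 needed for a call. The squares of Slc7a1 and Slc38a1 cross from above to below 0 at 12 and 24 h. At 24 h those of Slc1a4, Slc1a5, Slc6a9, Slc7a5 and Slc3a2 stay below 0 with their points.

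Counts of calls over time followed these levels. At 6 h 1 of 8 transporters (Slc7a1) was called higher and 0 lower, with a median ratio of 0.60 (length-adjusted 0.35), while 1.57% of compared genes were called higher and 0.373% lower. At 12 h 0 were called higher and 1 (Slc1a4) lower, with a median of -0.41, beside 2.33% higher and 0.746% lower of all compared genes. At 24 h 0 were higher and 2 (Slc1a4 and Slc6a9) lower, with a median of -0.69, beside 2.86% and 1.23%. All 4 comparisons share the vehicle library.

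Steps between treated libraries do not involve vehicle, and length adjustment moved their values little. From 2 to 6 h 7 of 8 transporters had an interval below 0 and 1 was called lower, Slc1a4 (-1.10), where 0.226% of compared genes were called higher and 0.102% lower. The largest steps came from 6 to 12 h. There 3 of 8 were called lower and 0 higher, beside 0.249% lower and 0.0565% higher of compared genes: Slc1a4 (-1.72, -1.91 to -1.55), Slc6a9 (-1.49, -1.63 to -1.36) and Slc7a5 (-1.19, -1.24 to -1.14). Slc7a1 (-0.74), Slc3a2 (-0.71) and Slc1a5 (-0.55) moved the same way without a call, and Slc38a1 (-0.21) and Slc38a2 (-0.01) moved least. Their median was -0.73 (length-adjusted -0.70), beside -0.01 over all compared genes. From 12 to 24 h 0 were called, beside 0.0904% higher and 0.0565% lower of compared genes, and the lowest were Slc6a9 (-0.49) and Slc7a5 (-0.38).

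Levels can be ordered between genes per kilobase of the longest annotated transcript. In vehicle this order was Slc3a2 (96.3 CPM per kilobase), Slc7a5 (59.5), Slc1a5 (57.8), Slc38a2 (25.9), Slc7a1 (11.9), Slc6a9 (6.42), Slc38a1 (5.78) and Slc1a4 (4.47). Slc7a5 and Slc1a5 did not differ beyond counting error there (ratio 1.03, 0.993 to 1.07). At 2 h Slc7a5 (138) came first, Slc7a1 (37.3) was level with Slc38a2 (37.9), and Slc1a4 and Slc6a9 (both 15.4) were level with each other, with Slc38a1 (8.73) last. At 24 h Slc3a2 (54.3) was first again, followed by Slc1a5 (39.6), Slc38a2 (33.5), Slc7a5 (30.4), Slc7a1 (14.1), Slc38a1 (7.21), Slc6a9 (3.18) and Slc1a4 (1.71), and all neighbours differed beyond counting error. The lengths of the transcripts in use are not known. With the length of all annotated exons, Slc7a5 was first at 6 h and second at 24 h, and Slc38a1 last in vehicle. By that length Slc1a4 (15.4) and Slc6a9 (10.4) were not level at 2 h.

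**Figure D3:**
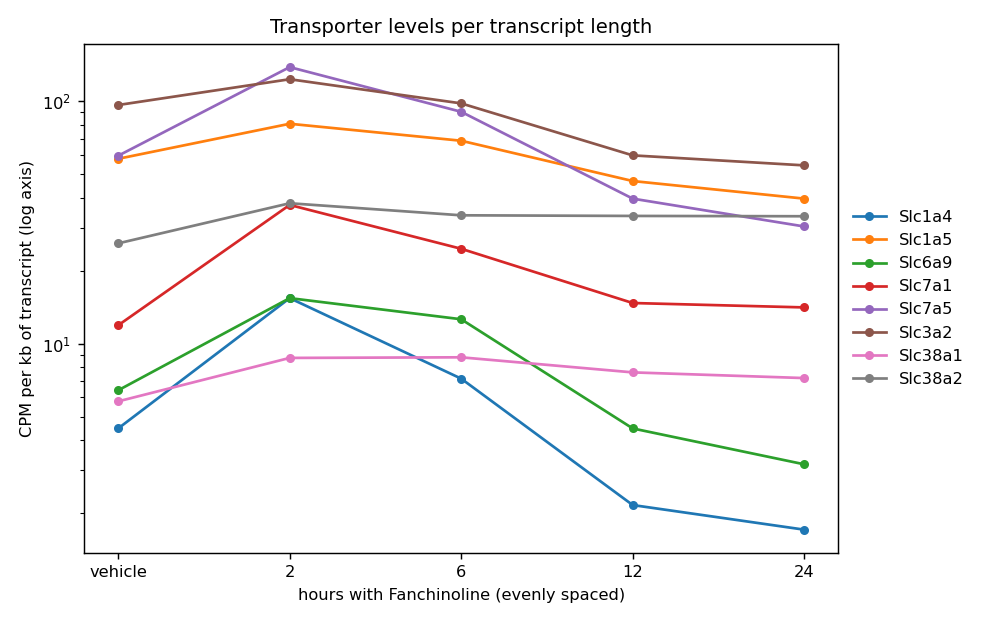
Level per transcript length (CPM per kilobase, log axis) of the 8 transporters in vehicle and after 2, 6, 12 and 24 h, 1 line per gene and 1 library per point. Slc7a5 passes Slc3a2 at 2 h (138 against 123) and is below Slc38a2 at 24 h (30.4 against 33.5), and Slc1a4 has the lowest end point at 1.71.

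Likeness between profiles is given over 5 libraries, with no test, and shares their scaling and depth. With the mean of the other 7 transporters, Pearson's r of log2 CPM was 0.90 to 0.99 for Slc1a4, Slc1a5, Slc6a9, Slc7a5 and Slc3a2, 0.88 for Slc7a1, 0.57 for Slc38a1 and 0.39 for Slc38a2. Slc38a1 and Slc38a2 had an r of 0.91 with each other. Among 449 other compared genes with a log2 range of at least 1 and an ordinary symbol, the profiles most like the mean of the 8 were those of Gpt2 (r 0.993), Trib3 (0.991), Crlf2 (0.989), Hic1 (0.987), Aldh18a1 (0.986) and Usp36 (0.975). Those most like Slc1a4 were Trib3 (0.991), Sesn2 (0.986) and Aldh18a1 (0.984). Trib3 was at 22.1 CPM in vehicle and 65.5, 35.6, 15.5 and 9.96 CPM after 2, 6, 12 and 24 h.

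In a list of 34 other amino acid transporters, 10 passed the minimum, and these stood nearer to vehicle at 2 h. Of these 10, 0 were called at any time against vehicle. Over those times 0.904% to 2.86% of all compared genes were called higher and 0.373% to 1.23% lower, so 0 of 10 says little. Their medians were 0.36 at 2 h (length-adjusted 0.05) and 0.10 at 24 h. Genes below the minimum were open to no call, whatever their ratio. Of the 10, 7 were above vehicle at 2 h and 3 below it. The taurine transporter Slc6a6 was at 0.61 at 2 h and 0.82 at 24 h (length-adjusted 0.22 and 0.41). Slc43a2, a carrier of large neutral amino acids, was at 0.56 and 0.97 (length-adjusted 0.06 and 0.47). Slc38a7, a lysosomal glutamine carrier, also peaked at 2 h, with 36.0 CPM in vehicle and 56.2, 47.8, 31.3 and 30.5 CPM after 2, 6, 12 and 24 h. Slc7a11, the cystine transporter and an ATF4 target, was below the minimum: its levels were 2.59 CPM in vehicle and 7.23, 6.55, 4.29 and 3.58 CPM after 2, 6, 12 and 24 h. The difference between the 8 and this list was not tested, since the 8 were chosen with their values known.

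Within the ATF4 pathway itself, 18 of 21 regulators passed the minimum. At 2 h 2 were called higher and 0 lower, beside 0.904% higher and 0.43% lower of all compared genes. At 24 h 1 was called higher and 3 lower, beside 2.86% and 1.23%. Of the 18, 16 were above vehicle at 2 h and 7 at 24 h. Their medians were 0.39 and -0.36 (length-adjusted 0.38 and -0.20). The Atf4 message was at 521 CPM in vehicle and 660.5, 502, 367 and 358 CPM after 2, 6, 12 and 24 h, a ratio of 0.34 (0.31 to 0.37) at 2 h. Trib3 (1.57) and the glutathione-degrading Chac1 (1.02) were called at 2 h. At 24 h both were called lower (-1.14 and -1.18; length-adjusted -0.94 each, not called), together with Nupr1 (-2.47), while Ddit4, an inhibitor of mTORC1, was higher (1.23). Ddit4 was also higher at 6 and 12 h (1.32 and 1.43). Ddit3, which encodes CHOP, was at 0.40 at 2 h and -0.91 at 12 h without a call (length-adjusted 0.84 and -0.54). Sesn2, a leucine sensor, reached 0.99 at 2 h. Eif2ak2 was at 0.29 at 2 h and 0.96 at 24 h without a call (length-adjusted 0.32 and 0.86).

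Of 14 amino acid synthesis enzymes, 12 passed the minimum. Of these, 1 was called higher at 2 h (0.904% of all compared genes) and 2 lower at 24 h (1.23%). Their medians were 0.24 and -0.66 (length-adjusted 0.38 and -0.59). The alanine aminotransferase Gpt2 was the one at 2 h (1.17). Asns, asparagine synthetase, and Cth, of cysteine synthesis, were those at 24 h (-1.40 and -1.60). Of the 20 cytosolic aminoacyl-tRNA synthetases 0 were called at either time. Among all compared genes 0.904% were called higher and 0.43% lower at 2 h, and 2.86% and 1.23% at 24 h. With shares this small, 0 of 20 says little about the synthetases. At 2 h 15 of them were above vehicle (median 0.17), led by Iars (0.76). At 24 h 20 were below it (median -0.35), with Cars lowest (-0.72). The core TGATGNAA was in windows of 6 of 19 regulators, 3 of 12 enzymes, 5 of 13 synthetases, 2 of 28 other transporters, 0 of 18 amino acid sensing and mTORC1 genes and 0 of 5 Myc-list genes, beside 1 of 5 of the transporters described here and 4.51% of all genes with a window. The 2 other transporters with matches were Slc7a7, at -0.02 at 2 h, and Slc7a11, at 1.46 and below the minimum. Whether matches go with ratios was not tested. Windows of 1 gene can overlap, so distinct sites were not counted.

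**Figure D4:**
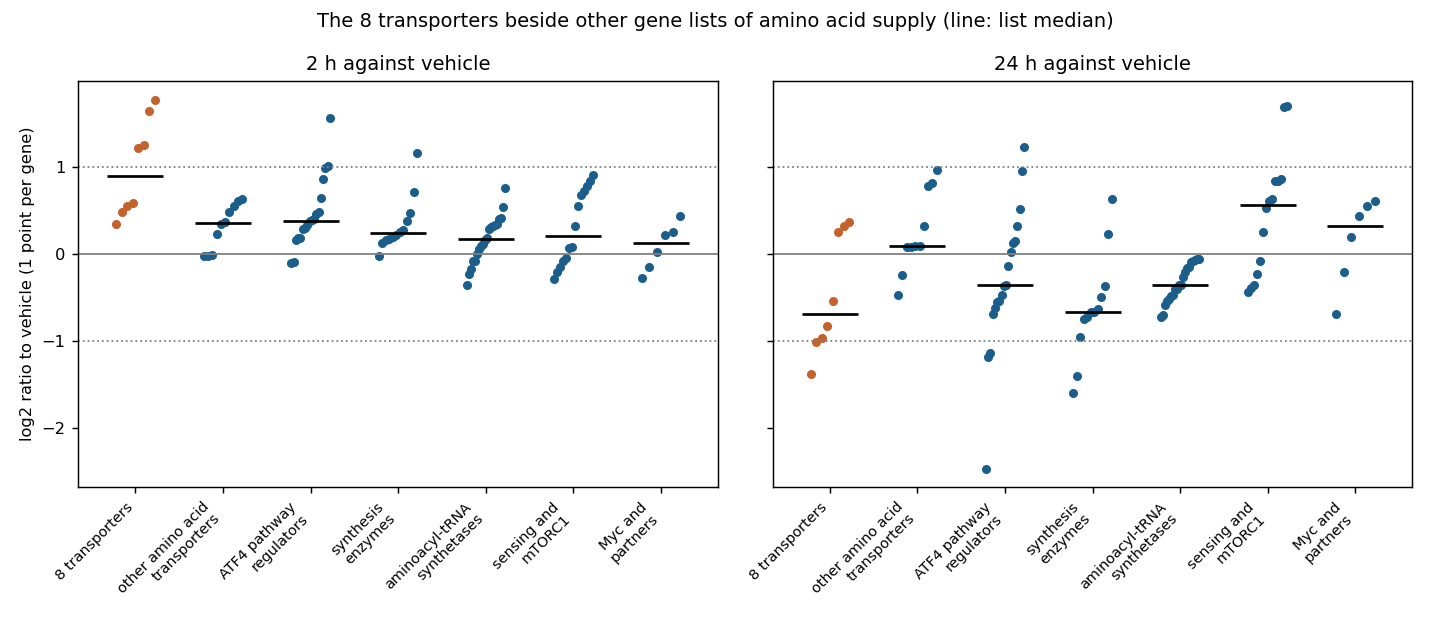
Log2 ratio to vehicle (vertical axis) at 2 h (left) and 24 h (right) for the 8 transporters, in orange, and for the compared genes of 6 other lists, in blue; each point is a gene, the line is the list's median and dotted lines mark a size of 1. The transporters' median is 0.91 at 2 h and -0.69 at 24 h, and their points at 24 h fall into 5 below 0 and 3 above it.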

How the data were processed

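The authors deposited raw counts per gene, with 1 column for each of 5 libraries; each column was matched to its sample by the description label. Per the submitters' processing notes, Trim Galore and HISAT2 were used with build GRCm38. No source used here names the counting program, its annotation or its handling of strand and of multi-mapping reads. Per the labels' protocols, RNA was extracted with TRIzol and libraries were made with a poly-A TruSeq kit.

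Library sizes were multiplied by TMM factors between 0.977 and 1.05, from edgeR 4.0.16 in R 4.3.3, and log2 CPM took a prior count of 2. For each ratio a 95% interval came from the exact Clopper-Pearson bounds of the share of 1 library in the pair (scipy 1.17.1). They take 1 count as 1 read. The upper limit for a gene at 0 is 3 counts, which is 0.0703 to 0.0915 CPM. The calls compare libraries and are not a test across samples. Interval and call code was tested on simulated data. Length adjustment subtracted a fit of natural splines (4 degrees of freedom each) on log2 longest transcript length and GC content, from GENCODE M21 on GRCm38, which held 99.9% of compared genes.

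The members and the 6 gene lists were chosen with earlier results of these data known. Named genes were the 8 members; of each list the called genes and up to 3 others with the largest ratios at 2 h and at 24 h; Atf4, Ddit3, Trib3, Slc7a11 and Myc; and the 6 and 3 genes most like the members' mean and Slc1a4. Slc7a7 was named after its values and promoter matches were seen. Where a list symbol had several entries, the one with the most counts was used. Promoter windows are RefSeq's. Alternatives were other scalings (DESeq2 1.42.0 size factors, library totals, upper quartile), a prior of 0.5, minimums of 1 CPM and none, length adjustment, summed entries and a log2 size of 0.58.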

Additional observations from a re-analysis of the deposited data

How the results depend on the processing

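No paired analysis was possible because there is 1 library per time point and no replicate number to pair; leaving out replicates was not possible for the same reason. Of 168 recomputed counts and medians over the 7 comparisons, 14 moved: a count by more than 1.5 times, or a median past the median of the counting bounds. Of the 126 counts, 115 were identical and 11 differed, of which 2 by no more than 1.5 times. No called transporter changed sign. Part of this sameness was fixed in advance and says nothing about stability. Summed entries could change no count or median, as each transporter had 1 entry. Lower minimums could change no count of transporters, as all of them passed the main minimum of 10 CPM. With length adjustment the median was 0.74 at 2 h, 0.35 at 6 h and -0.61 at 24 h against vehicle, and 0 transporters were called higher at 6 h, as with upper quartile scaling (0). At 24 h 1 was called lower with DESeq2's size factors and 1 with library totals (Slc1a4, with Slc6a9 short of the threshold). With upper quartile 3 were (Slc7a5 added). The 24 h median was -0.58 with library totals and -0.74 with upper quartile. With a log2 size of 0.58, 5 were higher at 2 h and 5 at 6 h, where 7.33% and 9.94% of compared genes were. At that size 3 were lower at 12 h and 4 at 24 h against vehicle (5.70% and 9.13% of compared genes), 3 for 6 h against 2 h (0.350%) and 5 for 12 h against 6 h (0.916%). The cause of these changes beyond the rules themselves was not tested. Of 56 single ratios, length adjustment moved 26 beyond their counting interval, by -0.49 to 0.08, and changed the sign of 5, all uncalled. Summed entries moved 0, which was likewise fixed in advance. With a minimum of 1 CPM the share of all genes called higher at 2 h was 1.79%, and lower 1.52%. Depth limits Slc1a4 most, with 287 counts at 24 h.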

Other observations

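Of 18 amino acid sensing and mTORC1 genes, 14 passed the minimum. At each of 2, 6, 12 and 24 h, 9 of these were above vehicle and 5 below it. Against vehicle 0 were called at 2 h and 2 at 12 h and at 24 h, both higher, where 2.33% and 2.86% of all compared genes were called higher: Flcn (1.09 and 1.69) and Fnip1 (1.03 and 1.71), which form the folliculin complex at the lysosome. Length-adjusted, Fnip1 was at 0.84 at 12 h and 1.43 at 24 h, and Flcn at 1.64 at 24 h. Flcn was at 15.8 CPM in vehicle and 29.6, 31.5, 33.6 and 51.0 CPM after 2, 6, 12 and 24 h. The list's median was 0.20 at 2 h and 0.57 at 24 h, and 0.18 at both times when length-adjusted. Among uncalled members, Mtor was at 0.84 and Rptor at 0.78 at 2 h, and Depdc5 at 0.87 at 24 h, of which none was above 0.33 when length-adjusted.

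The Myc list (Myc, Max, Mxd1, Mxd4, Mnt and Mxi1, 6 of 6 measured) had 0 called in any comparison. Over these comparisons 0.0565% to 2.86% of all compared genes were called higher and 0.0565% to 1.23% lower, so 0 of 6 says little. Myc, a factor known to act on several amino acid transporter genes, was at 264 CPM in vehicle and 238, 201, 184 and 163 CPM after 2, 6, 12 and 24 h. Its part in the transporter values was not tested. At 24 h its ratio was -0.69 (length-adjusted -0.57).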
